A study of Homo sapiens with 6 samples.

Results

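The genes described here make or sense lysophosphatidic acid (LPA), a signalling lipid, and were followed in triple-negative breast cancer cells depleted of the splicing factor SAM68. They are 9 genes of the 74852 loci in the deposited expression table, taken by symbol: the phospholipases LIPH and LIPI, the phospholipase D-type enzyme ENPP2 and the receptors LPAR1, LPAR2, LPAR3, LPAR4, LPAR5 and LPAR6. LIPH was chosen because its level was raised upon SAM68 silencing in these libraries, so that its difference is described and no p-value is given for it, whereas the other 8 were taken because of their function. Of the 9 genes, 5 reached a mean normalized read count of at least 10 over the 6 libraries, the minimum for the test, and LIPH reached it in either group alone. A normalized read count is the number of reads on a locus divided by a size factor of the library, so that it compares libraries and, without division by length, not genes.

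MDA-MB-231 is an established human cell line derived from a triple-negative breast cancer. Cells grown in high-glucose DMEM with serum were transfected 2 times with 4 pooled control siRNAs (si-CTRL) or 4 pooled siRNAs that target SAM68 (si-SAM68), with a lipid reagent and no other agent, and were collected 24 h after the second transfection according to the labels. The methods of the paper give another medium and another time of collection. Each group had 3 libraries of mRNA, collected in triplicate according to the methods of the paper, and no source used here says whether these were separate cultures, so that p-values measure the spread between these libraries, which may be technical. Because bulk RNA was measured, fewer cells of one type and less RNA per cell cannot be told apart.

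LPA is a small phospholipid that acts outside the cell. ENPP2, also called autotaxin, is secreted and cuts lysophosphatidylcholine into LPA, whereas LIPH and LIPI are membrane-associated phospholipases that release LPA from phosphatidic acid. The lipid is sensed by G protein-coupled receptors that act through the G12/13, Gq and Gi families on small GTPases, calcium and MAP kinases, and in breast cancer cells it is known for promoting migration and the release of cytokines such as IL-8. In the hair follicle, LIPH and LPAR6 belong to one axis, and loss of either causes hereditary woolly hair.

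Total reads were between 52625492 and 82568487 per library, with 15.1% of them on a ribosomal RNA locus in si-SAM68 replicate 2 and 1.83% to 3.17% in the other libraries. Of the markers of the line, VIM (138300 to 173162), CD44 (43246 to 68397) and AXL (43113 to 60461) did not pass the test between the groups, whereas CAV1 rose (log2 fold change 0.62, limma, adjusted p = 0.00101) and ZEB1 fell (log2 fold change -0.63, adjusted p = 0.0118). Of the 7 luminal markers, PGR was at 0, ESR1 (1.94 to 15.2), CDH1 (at most 4.60) and EPCAM (at most 9.20) were low, and GATA3 (331 to 542), ERBB2 (2413 to 3447) and FOXA1 (786 to 1393) were detected in every library. FOXA1 rose (log2 fold change 0.64, limma, adjusted p = 0.00351), and the part of these markers in the results on LPA genes was not tested. Of the markers of other cell types, COL1A1 was high (138281 to 181387) while its partner COL1A2 was between 32.5 and 54.4, and the leukocyte gene PTPRC was between 2.23 and 13.6.

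The siRNAs are shown because they define the groups and because an siRNA can also lower mRNAs that pair with its seed, bases 2 to 8 of its guide strand. Capitals mark the bases of each sense strand that correspond to that seed. All 4 sequences of the SAM68 pool were found whole in the mRNA of KHDRBS1, the gene that encodes SAM68.
siSAM68_1: gcacccauaugGACGUUAu
siSAM68_2: gaaagagcgagUGCUGAUa
siSAM68_3: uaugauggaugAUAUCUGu
siSAM68_4: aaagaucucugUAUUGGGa

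KHDRBS1 (chr1:32479295-32526460, hg19) had normalized read counts of 15660, 14483 and 14737 in the si-CTRL and 583, 602 and 670 in the si-SAM68 libraries. It fell by 4.60 on the log2 scale (SE 0.083, limma, adjusted p = 2.13e-09), so the labels of all 6 libraries matched its level.

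LIPH, which encodes membrane-associated phospholipase A1 alpha, lies at chr3:185225567-185270369 (hg19, minus strand). Its normalized read counts were 61.2, 67.8 and 45.6 in the si-CTRL libraries and 202.5, 183 and 159 in the si-SAM68 libraries. All si-SAM68 values were therefore above all si-CTRL values. The reads behind them were 49, 70 and 48 in si-CTRL and 201, 199 and 142 in si-SAM68 libraries. The means were 58.2 ± 11.4 (SD, n = 3) and 181 ± 22.0 (SD, n = 3), a 3.12-fold difference of means, and the log2 fold change was 1.63 (SE 0.193). This was the 43rd highest log2 fold change of the 18849 loci tested, whose median was 0.005. Within a group the libraries stayed close, with the highest value 1.49 times the lowest in si-CTRL and 1.28 times in si-SAM68. Without the ribosomal RNA-rich si-SAM68 replicate 2 the log2 fold change of LIPH was 1.62, and leaving out each library in turn gave 1.47 to 1.75. No 7-base match to a seed of either siRNA pool was found in the longest annotated LIPH 3′UTR.

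**Figure D1:**
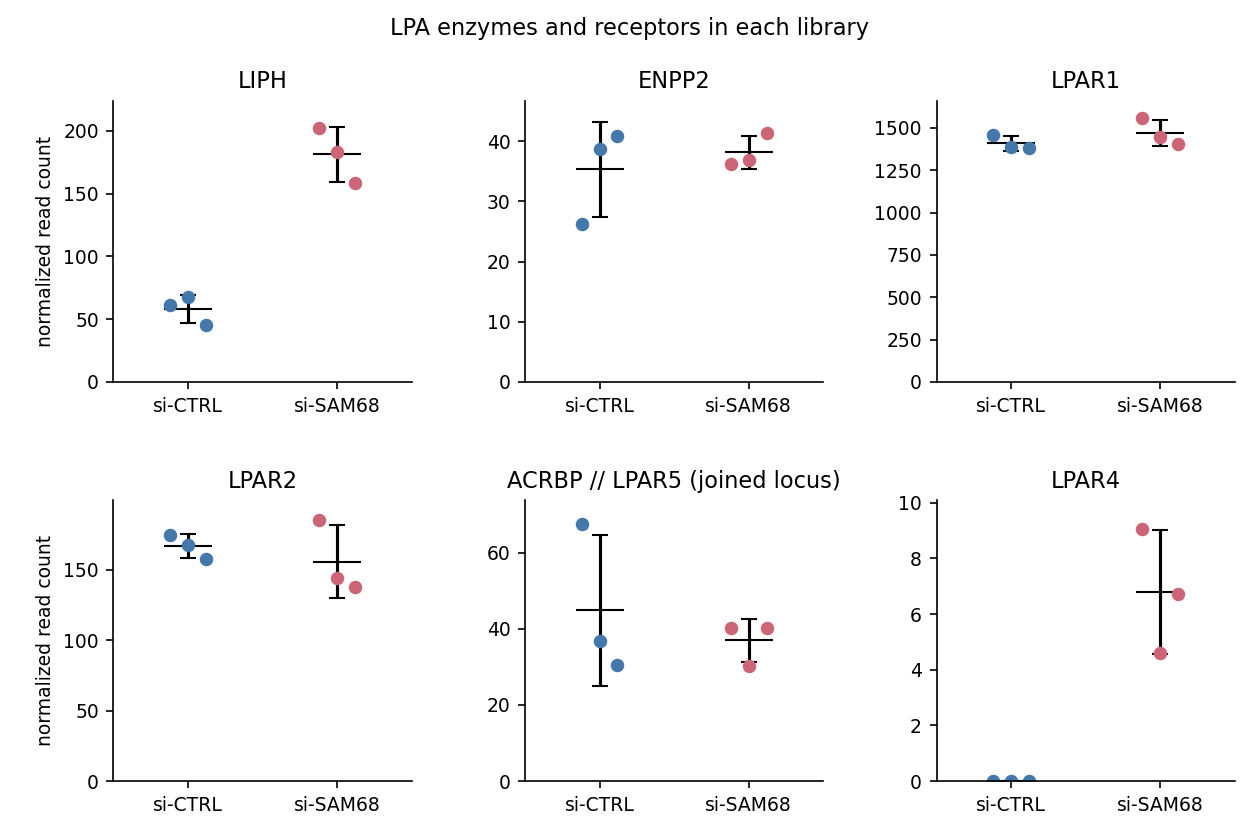
Normalized read counts (vertical axes) of the LPA genes in each library, with blue points for si-CTRL, red points for si-SAM68 and bars for the mean ± SD of 3 libraries. The 3 si-SAM68 points of LIPH (159 to 202.5) lie above its si-CTRL points (45.6 to 67.8), whereas the groups overlap for ENPP2, LPAR1, LPAR2 and the locus that holds LPAR5, and LPAR4 is at 0 in si-CTRL libraries.

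For the other members that make LPA from a precursor, no such difference was detected. ENPP2 (chr8:120569317-120651106), the secreted enzyme autotaxin, had counts of 26.2, 38.7 and 40.9 in si-CTRL and 36.3, 36.8 and 41.3 in si-SAM68 libraries. The groups overlapped, and the log2 fold change was 0.13 (95% CI -0.43 to 0.70, limma, adjusted p = 0.780). At this depth the interval includes changes of moderate size in either direction. LIPI (chr21:15481134-15583212), the close relative of LIPH, had 0 reads in every library, which allows a level of up to 2.76 to 3.75 normalized reads by counting error alone.

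Among the receptors, LPAR1 (chr9:113635544-113801526) was by far the most abundant. Its counts were 1461, 1386 and 1379 in si-CTRL and 1556, 1449 and 1404 in si-SAM68 libraries, groups that overlapped. The log2 fold change was 0.06 with a 95% CI of -0.13 to 0.25 (limma, adjusted p = 0.686). LPAR2 (chr19:19734468-19739739), the next receptor, had counts of 175, 168 and 158 in si-CTRL and 185, 144 and 137 in si-SAM68 libraries. Its groups overlapped as well, with a log2 fold change of -0.11 (95% CI -0.45 to 0.24, limma, adjusted p = 0.692). LPAR5 is joined in the table with ACRBP, an acrosomal protein gene, into one locus (chr12:6728001-6756598), so its own reads cannot be told apart. That locus had 67.5, 36.8 and 30.4 in si-CTRL and 40.3, 30.4 and 40.2 in si-SAM68 libraries (log2 fold change -0.20, 95% CI -0.90 to 0.50, limma, adjusted p = 0.720).

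The other 3 receptors were at the limit of detection. LPAR4 (chrX:78003206-78012576) had 0 reads in each si-CTRL library and 9, 5 and 6 reads in the si-SAM68 libraries. Against a floor of 3 reads over the si-CTRL group, these 20 reads are 6.46-fold higher. The counting error of the 20 reads themselves is not in that value. The two-sided exact permutation p was 0.1, the smallest that 3 against 3 libraries can give. When no filter on low values was used, the locus entered the limma test only through its si-SAM68 reads (adjusted p = 0.00585). Its si-CTRL values had no spread, so this p is not read as support for a change. The LPAR4 3′UTR held 1 match to a seed of the control pool, as 56% of genes held at least 1, and 0 to the SAM68 pool, and the part of this in the result was not tested. LPAR3 (chr1:85279087-85358896) had 4, 8 and 2 reads in si-CTRL and 1, 2 and 1 reads in si-SAM68 libraries. Its normalized read counts, 5.0, 7.75 and 1.90 against 1.01, 1.84 and 1.12, did not overlap, although the lowest si-CTRL and the highest si-SAM68 library both had 2 reads. In the test without a filter its adjusted p was 0.255 (limma). Its 3′UTR held 2 matches to seeds of the SAM68 pool, as 29.7% of 11964 genes held at least 1, and 1 match to the control pool. LPAR6 (chr13:48963707-49018841), the receptor of the hair follicle axis, lies inside RB1 on the opposite strand and had 1 read in all, in si-SAM68 replicate 2. RB1 itself was between 6535 and 7951.

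Of the 4 tested members other than LIPH, 0 had an adjusted p under 0.05 with limma, and 0 were called by edgeR or by DESeq2, where limma called 10.7% of all loci. At an unadjusted p under 0.05 the count was also 0, against 27% of all loci, and at the thresholds of an unadjusted p of at most 0.05 with a fold of at least 1.5 it was 0, against 7.67%. For LPAR1 the interval was narrow, and for ENPP2 and the LPAR5 locus it was wide.

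Levels can be set side by side between genes only per length, here as normalized reads per kilobase of exon. LPAR1 had 364 ± 11.7 in si-CTRL cells and 380 ± 20.2 upon SAM68 silencing (SD, n = 3), and LPAR2 had 62.2 ± 3.21 and 58.1 ± 9.66. LIPH had 14.5 ± 2.83 in si-CTRL cells and 45.1 ± 5.46 upon silencing, and ENPP2 had 9.79 and 10.6. In si-CTRL cells the ranges of LIPH (11.3 to 16.8) and ENPP2 (7.28 to 11.3) met at their ends. In si-SAM68 cells LIPH (39.4 to 50.3) was clear of ENPP2 (10.1 to 11.5) and just under the lowest LPAR2 value (51.2). LPAR1 made up 84.7% to 87.1% of the summed receptor level per kilobase, with the joined LPAR5 locus left out, and the values of the groups overlapped.

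**Figure D2:**
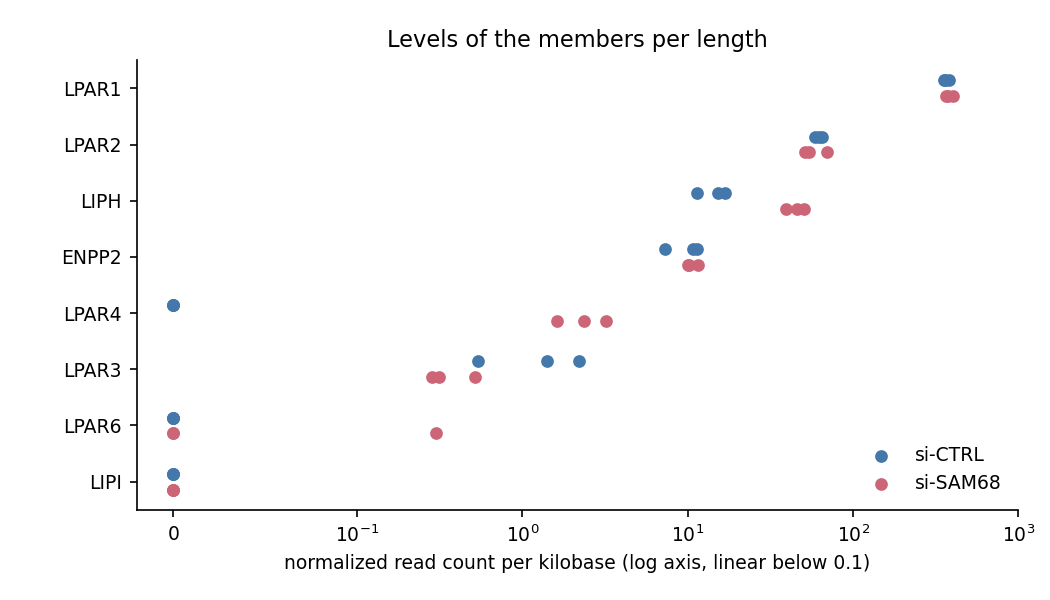
Normalized reads per kilobase of exon (logarithmic axis, linear near 0) of the LPA enzymes and receptors, with blue points for the 3 si-CTRL and red points for the 3 si-SAM68 libraries. LPAR1 is highest (357 to 402), LPAR2 follows (51.2 to 69.1), and LIPH moves from the ENPP2 level in si-CTRL to just under LPAR2 in si-SAM68 libraries.

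The rest of the pathway was read from 7 lists with 95 genes, of which 76 were tested. Of these, 18 changed at an adjusted p under 0.05, with 4 higher and 14 lower, where 4.47% of all loci were called higher and 6.23% lower. Leaving out 1 library gave between 8 and 24 changed genes, with 8 without si-SAM68 replicate 3, 11 without si-SAM68 replicate 1 and 14 without the ribosomal RNA-rich si-SAM68 replicate 2.

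Genes that supply phosphatidic acid, the substrate of LIPH, or lysophospholipids made up the first list. Of 16 tested, 0 rose and 1 fell, against 4.47% of all loci called higher and 6.23% called lower. The median log2 fold change was -0.02. The gene that fell was DGKG, a diacylglycerol kinase that makes phosphatidic acid, with counts of 190 to 241 in si-CTRL and 103 to 144 in si-SAM68 libraries (log2 fold change -0.76, limma, adjusted p = 0.0217). DGKG passed in 4 of the 6 fits that left out 1 library. The most abundant members were the diacylglycerol kinase DGKZ (log2 fold change -0.14, adjusted p = 0.311) and AGK, a mitochondrial lipid kinase that can make LPA (log2 fold change -0.17, adjusted p = 0.226).

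In the list of LPA removal, 0 of 11 tested were higher and 1 was lower, against 4.47% and 6.23% of all loci. The median log2 fold change was -0.04. This list also held glycerol-3-phosphate acyltransferases such as GPAT4, which make LPA, so its count and median are not of removal alone. AGPAT5, an acyltransferase that turns LPA into phosphatidic acid, had counts of 2193 to 2575 in si-CTRL and 1498 to 1680 in si-SAM68 libraries. It fell by 0.60 on the log2 scale (limma, adjusted p = 0.00418). PLPP2, a phosphatase that degrades LPA and the most abundant of the list, did not pass (log2 fold change -0.26, adjusted p = 0.069), nor did the acyltransferase GPAT4 (log2 fold change -0.07, adjusted p = 0.660). Of the lipases and phosphodiesterases related to LIPH and ENPP2, 4 of 13 were tested and 0 changed by limma, with a median of -0.16. At an unadjusted p under 0.05 (limma) the count was 2, against 27% of all loci, and these genes went in opposite directions. The most abundant were ENPP1, which makes pyrophosphate (log2 fold change 0.21, adjusted p = 0.219), and ENPP4 (log2 fold change 0.31, adjusted p = 0.0719).

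Of the receptors of related lipids, 2 of 8 tested were higher and 1 was lower, against 4.47% and 6.23% of all loci. The median log2 fold change was 0.13. S1PR2, a sphingosine-1-phosphate receptor that couples to G12/13, had counts of 762 to 801 in si-CTRL and 1023 to 1128 in si-SAM68 libraries. It rose by 0.47 on the log2 scale (limma, adjusted p = 0.0113), whereas the related S1PR5 fell by 0.41 (adjusted p = 0.0326). The loci with the highest counts, S1PR3 joined with C9orf47, whose reads cannot be told apart (log2 fold change -0.12, adjusted p = 0.316), and S1PR1 (log2 fold change 0.10, adjusted p = 0.602), did not pass. S1PR2 lost its call without 1 of the libraries and S1PR5 without 3 of them.

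Of the G proteins, exchange factors and GTPases that carry the LPA signal inward, 1 of 18 tested rose and 2 fell. Of all loci, 4.47% were called higher and 6.23% lower. The median log2 fold change of the list was 0.06. RHOB, a small GTPase that growth factors induce, had counts of 7380, 9200 and 9170 in si-CTRL and 13163, 13031 and 13776 in si-SAM68 libraries, groups that did not overlap, as for 33.9% of all loci. Its log2 fold change was 0.64 (limma, adjusted p = 0.00356). GNAQ, the alpha subunit of Gq (log2 fold change -0.30, adjusted p = 0.0414), and ARHGEF1, the exchange factor that links G12/13 to RHOA (log2 fold change -0.29, adjusted p = 0.0428), were just inside the threshold. With the replicate number as a block, their adjusted p were 0.0615 and 0.0653, and each passed in 1 of 6 fits that left out a library. RHOA itself was the most abundant member (log2 fold change 0.15, adjusted p = 0.242), followed by GNAS, the alpha subunit of Gs (log2 fold change -0.09, adjusted p = 0.510).

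**Figure D3:**
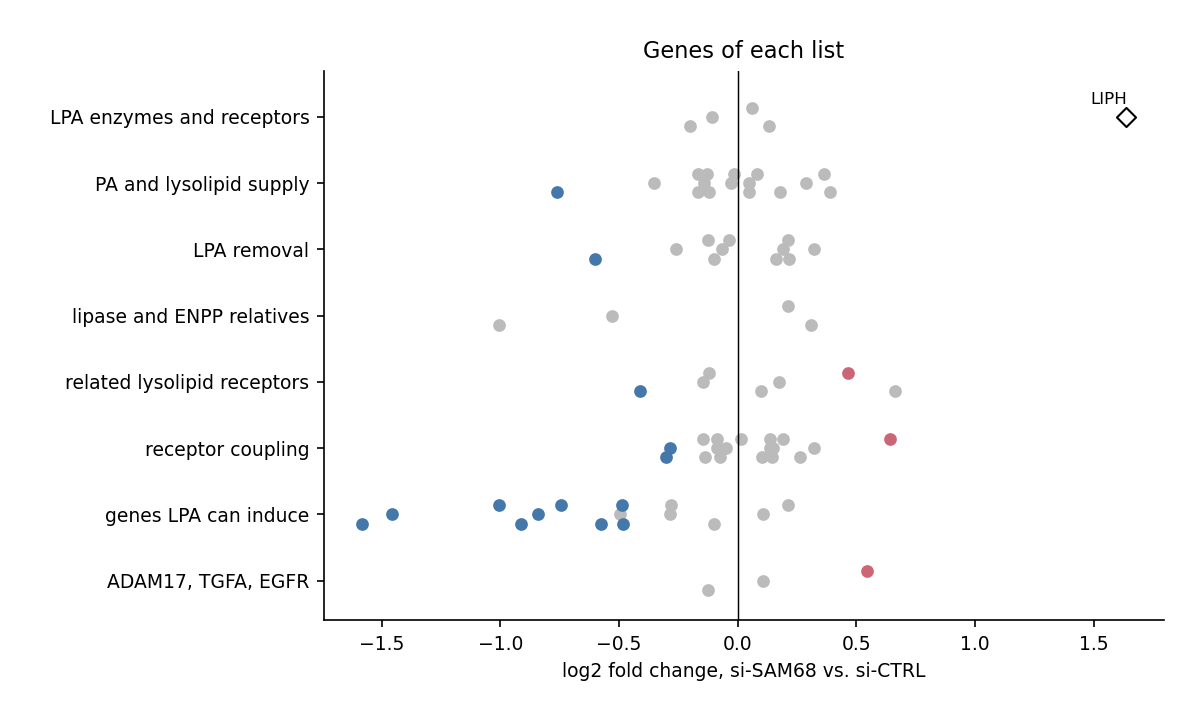
Log2 fold change (si-SAM68 over si-CTRL, horizontal axis) of genes among the LPA genes and the 7 pathway lists, with blue (lower) and red (higher) points for an adjusted p under 0.05, grey points for the rest and an open diamond for LIPH. LIPH entered the fit, but no p-value is given for it because it was chosen by this contrast. Genes of the LPA response lie mainly on the left (median -0.49), whereas the lists of supply and removal are centred near 0.

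Genes known to be induced by LPA through its receptors were in part lower in si-SAM68 cells. Of the 16 tested, 9 fell, 0 rose and 7 did not pass, against 6.23% of all loci called lower and 4.47% called higher. The median log2 fold change was -0.49 against 0.005 for all loci. Many other stimuli induce the same genes. Without si-SAM68 replicate 1 or replicate 3, 4 and 3 genes were called lower, and without the ribosomal RNA-rich replicate 2 the count was 9. With an unadjusted p of at most 0.05 and a fold of at least 1.5, 6 of the 16 were lower, against 4.83% of all loci.

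The immediate early transcription factor EGR1 had counts of 1767, 1110 and 1055 in si-CTRL and 387, 508 and 391 in si-SAM68 libraries. It fell by 1.58 on the log2 scale (SE 0.191, limma, adjusted p = 0.00132), and FOS, a subunit of AP-1, fell by 1.01 (adjusted p = 0.00627). CXCL8, which encodes the chemokine IL-8, had counts of 16678, 14504 and 18765 in si-CTRL and 4404, 7080 and 7036 in si-SAM68 libraries. It fell by 1.46 (SE 0.172, adjusted p = 0.00118). EGR1, FOS and CXCL8 passed in all 6 fits that left out 1 library. Of the 16 genes of the list, 10 did not overlap between the groups, EGR1, FOS and CXCL8 among them, against 33.9% of all loci.

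The other secreted factors and enzymes had smaller fold changes. PTGS2, the inducible cyclooxygenase, had counts of 400 to 595 in si-CTRL and 203 to 330 in si-SAM68 libraries (log2 fold change -0.91, limma, adjusted p = 0.0178). IL6, a cytokine, and HBEGF, an EGF receptor ligand, fell by 0.84 (adjusted p = 0.0203) and 0.75 (adjusted p = 0.0147). These genes, with VEGFA (log2 fold change -0.57, adjusted p = 0.0148) and LIF (log2 fold change -0.49, adjusted p = 0.0141), passed in 4 of the 6 fits. SPHK1, a sphingosine kinase (log2 fold change -0.48, adjusted p = 0.00995), passed in 5. The plasminogen activator PLAU, among the most abundant members, did not pass (log2 fold change -0.10, adjusted p = 0.691).

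**Figure D4:**
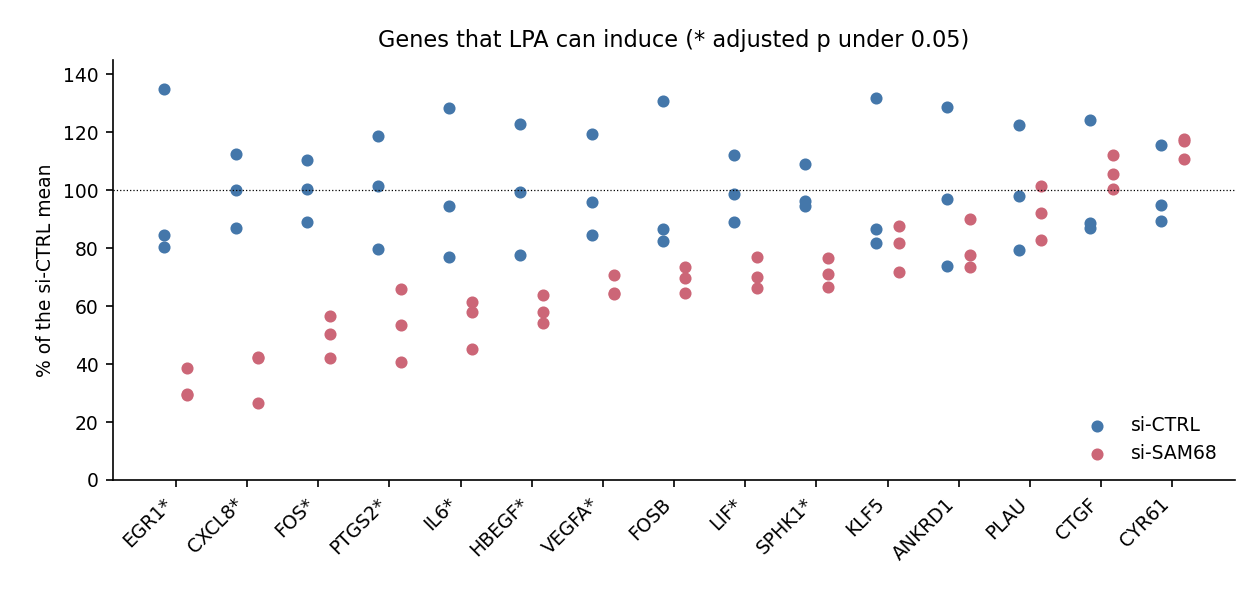
Level of LPA response genes in each library as a percentage of the si-CTRL mean of that gene (vertical axis), with blue points for the 3 si-CTRL and red points for the 3 si-SAM68 libraries. EGR1, CXCL8 and FOS are lowest in si-SAM68 relative to si-CTRL libraries, whereas the points of PLAU overlap between the groups.

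The hair follicle list held genes that LIPH is known to act with there: the protease ADAM17, its shed ligand TGFA and the receptor EGFR. ADAM17 had counts of 1784, 1551 and 1512 in si-CTRL and 2275, 2384 and 2398 in si-SAM68 libraries, groups that did not overlap, as for 33.9% of all loci. Its log2 fold change was 0.55 (limma, adjusted p = 0.00574). TGFA (log2 fold change -0.13, adjusted p = 0.388) and EGFR (log2 fold change 0.11, adjusted p = 0.509) did not pass. The groups of TGFA did not overlap either, with the si-SAM68 values lower. LPAR6, the receptor of that axis, was not detected beyond 1 read.

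The chromosomal neighbours of the members were looked at after values had been seen. Of the nearest loci on each side, 13 of 19 were tested, 0 rose and 2 fell, where 4.47% of all loci were called higher and 6.23% lower. TMEM41A, which encodes a transmembrane protein, lies 947 bases from LIPH on the same strand (chr3:185205386-185224619, hg19). Its counts were 1781, 1437 and 1599 in si-CTRL and 785, 721 and 743 in si-SAM68 libraries, so that it went the opposite way to LIPH. Its groups did not overlap, as for 33.9% of all loci. It fell by 1.09 on the log2 scale (SE 0.101, limma, adjusted p = 0.000353), and without 1 library the log2 fold change was -1.17 to -1.02. Its 3′UTR held 1 match to the control pool, as 56% of genes held at least 1. It held 2 matches to the seed of siSAM68_2, to which 13.9% of genes held at least 1. The first of these 2 is shown, with the match in capitals. The part of these matches in the result was not tested.
TMEM41A site: ggagaagaTGCTGATtgtccttg

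On the other side of LIPH, the SUMO protease gene SENP2 did not pass (log2 fold change 0.23, adjusted p = 0.218). The second neighbour that fell was GMIP, a GTPase-activating protein for RHOA that lies 542 bases from LPAR2 (log2 fold change -0.43, limma, adjusted p = 0.0251).

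**Figure D5:**
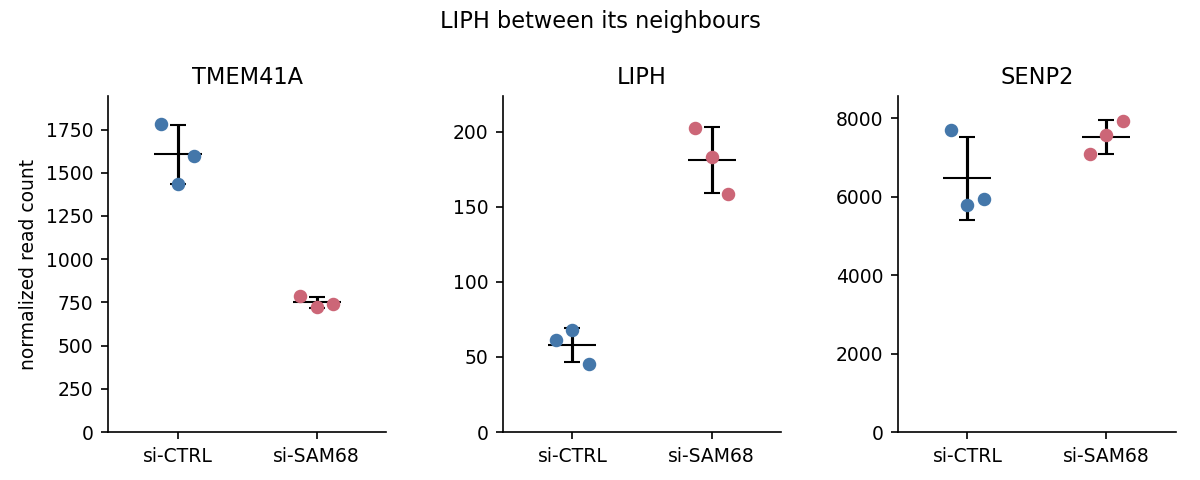
Normalized read counts (vertical axes) of LIPH and of its nearest neighbours TMEM41A and SENP2 in each library, with blue points for si-CTRL, red points for si-SAM68 and bars for the mean ± SD of 3 libraries. LIPH is higher and TMEM41A lower in si-SAM68 libraries, without overlap, whereas the groups of SENP2 overlap.

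By the root mean square difference of centred log2 values over the 6 libraries, the loci most like LIPH, out of 12927 with a symbol and a mean of 50 or more, were FAXDC2 (0.126), PLAC8 (0.151), IL18 (0.153), ANO2 (0.171) and SCG2 (0.208). Their log2 fold changes were 1.61, 1.41, 1.63, 1.41 and 1.56. As LIPH was chosen by this contrast, this likeness is a description.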

How the data were processed

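Poly(A)+ RNA of MDA-MB-231 cells was sequenced, with groups and replicate numbers as the labels give them. The unit of the deposited table is a signal made by the authors: reads per FAST DB v2016_1 locus (hg19) divided by a DESeq2 size factor. The submitters' processing notes name STAR 2.4.0, SAMtools, Picard, FastQC and DESeq2, and the counter and its strand setting are not given in the sources used here. Each library's smallest step, used as a divisor, turned 100% of its values into whole reads (tolerance 0.01). Replicates differed by more than sampling noise.

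Loci whose mean reached 10 (18849) were tested on log2(normalized read count + 1) with limma 3.58.1 (lmFit and eBayes with trend, R 4.3.3), with p-values adjusted by Benjamini-Hochberg over all of them. Fold changes are on that scale, which understates changes of low genes. A gene changed at an adjusted p under 0.05. The test was checked on simulated data. Counting floors are 3 reads and cover counting error only. Exon lengths and 3′UTRs came from GENCODE 29 (GRCh38), used without positions.

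The members, lists and rules were chosen with earlier results of these data known, so no pattern here is independent support. The genes named were KHDRBS1, the 9 members, of each list up to 6 changed genes by size and the 2 most abundant, and the 5 loci most like LIPH. VEGFA, LIF, SPHK1, RB1, the neighbours and the markers were added after their values were seen. AGPAT1 was not found under its symbol, and some listed genes are counted in the totals but not reported here and not drawn.

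Deviations from the group means correlated at 0.105, 0.231 and 0.125 between libraries of the same replicate number and at -0.125 to 0.007 otherwise. The numbers may therefore pair the libraries, although these correlations are weak. The main fit left the replicate number out, so its p-values and intervals are unpaired. In an alternative fit the replicate number entered as a block. Also tried were a pseudocount of 0.1 or 5, a minimum mean of 50 or none, TMM factors, quantile normalization, eBayes without trend, each library left out in turn, and edgeR 4.0.16 and DESeq2 1.42.0 on the recovered reads.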

Additional observations from a re-analysis of the deposited data

How the results depend on the processing

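LIPH kept a log2 fold change of 1.57 to 1.67 under every alternative that used all libraries and of 1.47 to 1.75 without 1 library. The filters, the eBayes setting and the replicate block cannot move a log2 fold change here, so only the other alternatives bear on it. The sign of some members with wide intervals turned without si-CTRL replicate 1: ENPP2 to -0.062 (range -0.062 to 0.25) and the LPAR5 locus to 0.13 (range -0.43 to 0.13), and neither was called in any fit. With no filter on low values 1 member other than LIPH was called, LPAR4, which entered only through its si-SAM68 reads and has none in si-CTRL. Pathway genes called went from 18 to 8, and lower LPA response genes from 9 to 3, with eBayes without trend. Leaving out 1 library gave 8 to 24 and 3 to 9, the lowest without si-SAM68 replicate 3. Over all loci, 2017 were called, against 899 with eBayes without trend, 2026 with edgeR, 2789 with DESeq2 and 625 to 2839 without 1 library. With the replicate block 1697 loci were called, and of the 18 pathway genes the block ended the calls of GNAQ and ARHGEF1 and no other. Of 110 log2 fold changes recomputed under the alternatives, 108 kept their direction and, where tested, their side of the threshold, and 219 of 256 counts of called genes stayed within 1.5 times their value. Many of these 219 are counts of 0 that stayed at 0, and the pathway total was tallied beside its own lists. That tally therefore overstates how stable the counts are. Under the filters, the eBayes setting and the block a direction could not turn, so those cases are no check of direction. The low depth of LPAR3, LPAR4, LPAR6 and LIPI limits what can be said of them, and reads of LPAR5 and ACRBP cannot be separated.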
